A study of Mus musculus with 12 samples.

Results

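The 40 genes described here encode the core autophagy machinery and the receptors that bring cargo to it. They were chosen by gene symbol, as a list, and all 40 were found among the 47729 genes of the count table. Intestinal stem cells (ISCs) of the small intestine were sorted and their RNA sequenced in 12 libraries, 3 from each of 4 groups. The mice were of genotype Lgr5-EGFP-IRES-CreERT2, in which EGFP and an inducible Cre are made from the Lgr5 locus, so that the sorted cells are those in which that locus was active. The sort kept live EpCAM+ CD24- cells with high EGFP that lacked CD31, CD45 and TER119. All 4 groups shared this genotype. The methods give an age of 8 to 10 weeks and the use of both sexes, and the sex of each library is not given in the sources used here. The stress mice were restrained in a tube for 3 h on 1 day, and the Ctrl mice were not restrained; the restraint protocol keeps its control mice without food and water for the same hours. The CORT mice received corticosterone, the main glucocorticoid of the mouse, as a single intraperitoneal dose of 5 mg/kg. The vehicle mice received its solvent, 20% sulfobutylether-β-cyclodextrin. The stress libraries are numbered 1+2, 3 and 4+5+6 in the labels, and the joined numbers were read as pools of animals. Their titles also carry the letters CRS, which in the study stand for chronic restraint repeated over weeks, whereas its account of the sequencing and the series' design give a single exposure; the single exposure is followed here, and the 3 h come from the description of the repeated protocol.

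Autophagy encloses cytoplasm in a double membrane and delivers it to the lysosome for breakdown. The ULK kinase complex starts the process, a class III phosphatidylinositol 3-kinase complex built on Becn1 and Pik3c3 marks the site, and WIPI, ATG2 and ATG9 proteins bring and extend the membrane. A conjugation system related to ubiquitin then attaches ATG8 proteins (the LC3 and GABARAP families) to the membrane, where they bind receptors that hold the cargo, and Tfeb and Tfe3 drive transcription of autophagy and lysosome genes. In the gut, autophagy genes are known for their roles in Paneth cells and in keeping stem cells intact.

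The libraries held between 15934907 and 69533214 estimated counts, with the 3 CORT libraries at 29426183 or more, vehicle library 6 at 31280267 and the other 8 at 17135770 or fewer. The label of ISCs was checked against 6 markers (Olfm4, Axin2, Lgr5, Smoc2, Ascl2 and Slc12a2), whose summed level lay between 10616 and 13854 CPM (counts scaled to library size) in every library, and none of the 6 was at 0. Olfm4 made up most of this sum, with 6844 CPM or more, and single markers differed between groups. Ascl2, a transcription factor of ISCs, measured 137 to 147 CPM in Ctrl and 53.4 to 68.5 CPM in stress, and 148 to 170 CPM in vehicle and 60.2 to 108 CPM in CORT. Lgr5 measured 193 to 209 CPM in vehicle and 130 to 161 CPM in CORT, and overlapped between Ctrl and stress. Smoc2 was also lower in every CORT library, at 457 to 512 CPM against 577 to 600 CPM in vehicle. Axin2 was lower in every stress library, at 490 to 523 CPM against 582 to 629 CPM in Ctrl. Olfm4 went the other way in CORT, at 7787 to 9253 CPM against 6844 to 7691 CPM in vehicle. Markers of blood cells summed to at most 6.57 CPM and those of stroma and endothelium to at most 4.07 CPM. The 6 enterocyte markers, in contrast, summed to 320 to 1674 CPM in the stress libraries and to 178 to 201 CPM in the Ctrl libraries, and goblet cell markers reached 1448 CPM in stress library 4+5+6. In the CORT and vehicle libraries the enterocyte sums overlapped, at 127 to 194 and 136 to 189 CPM, whereas the 6 Paneth cell markers summed to 105 to 118 CPM in CORT and 185 to 213 CPM in vehicle. In bulk libraries such as these, fewer cells of a type and less RNA per cell cannot be told apart. The p-values measure the spread between libraries, which includes differences between animals as far as each library is a separate animal or pool.

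Every autophagy gene was detected in every library, and the lowest count of any of them was 20, for Bnip3 in stress library 3. A read pair could give up to 4 counts, so fewer than 20 read pairs can underlie that value. The summed level of the 40 genes was 2126 to 2242 CPM in Ctrl, 2362 to 2436 in stress, 2137 to 2253 in vehicle and 2255 to 2353 in CORT. Levels between genes were compared as FPKM, which divides by transcript length. Gabarap, an ATG8 protein, was the highest of the 40 with a mean of 94.5 FPKM over the 12 libraries, and Tax1bp1, a receptor for ubiquitinated cargo, was second with 83.9 FPKM. Their ranges over the libraries overlapped. Becn1, the scaffold of the phosphatidylinositol 3-kinase complex, followed with 41.4 FPKM, ahead of the receptor Sqstm1 (p62) with 39.5 FPKM and Map1lc3b with 38.1 FPKM, and the ranges of these 3 overlapped as well. At the other end stood Bnip3, a mitophagy receptor, with 1.33 FPKM and the protease Atg4a with 2.42 FPKM. Fam134b, a receptor for the endoplasmic reticulum, varied most between libraries, with a coefficient of variation of 49.9% of its CPM, and Wipi2 varied least with 4.78%. No source used here says that reads were counted by strand, and Becn1, Sqstm1, Map1lc3b, Rb1cc1, Atg2b, Atg4b, Atg4d and Atg9a overlap genes with counts on the opposite strand, so that their values are uncertain to that extent. Atg9a also shares 1832 bases with Gm29253 on its own strand. Fam134b and Tfeb overlap no other gene with counts, and the antisense neighbour of Atg14 was not analysed here.

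**Figure D1:**
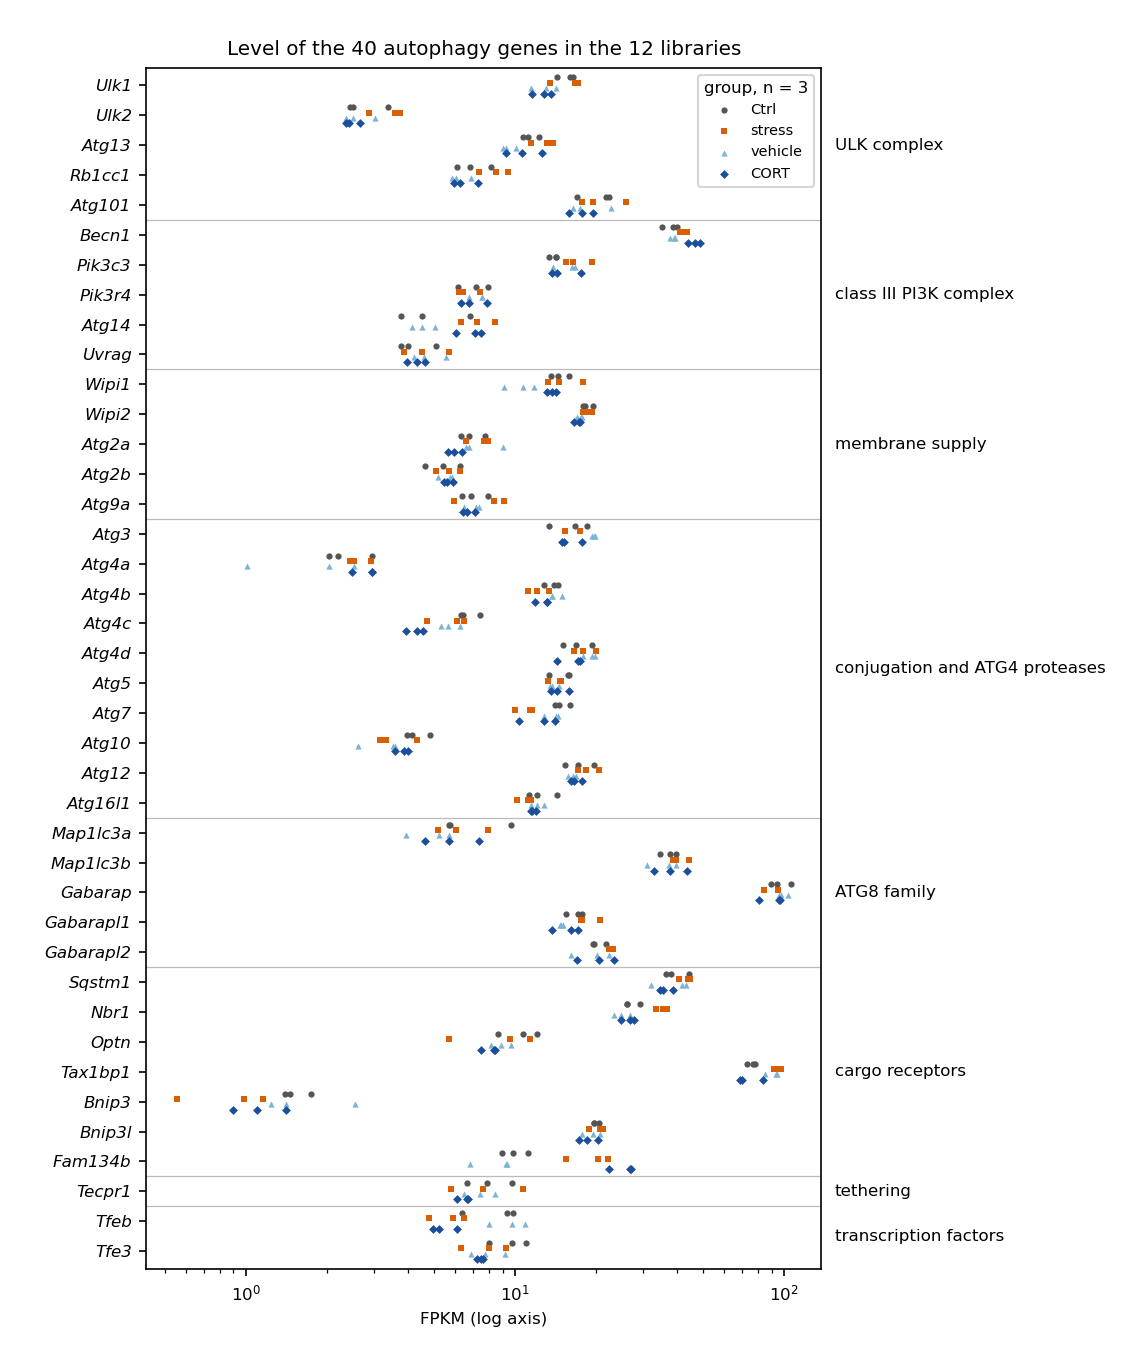
Level of each of the 40 autophagy genes in FPKM (log axis) by role; each point is 1 library and colour and marker give the group (n = 3). Gabarap and Tax1bp1 lie highest, Bnip3 lowest, and both treated groups lie clear of both control groups for Fam134b and, by less, for Becn1. In CPM the stress and vehicle libraries overlap for Becn1, which passed the test in neither comparison.

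The first comparison asked which of these genes differed in ISCs after a single restraint. Expression of Fam134b rose, and none of the other 39 genes passed the test. That is 1 of 40 past an adjusted p of 0.05 (edgeR's quasi-likelihood test, Benjamini-Hochberg adjustment over 13722 genes), where 1.89% of all genes tested were called. In the higher direction the background was 1.3%, and in the lower direction, with no member called, it was 0.59%. No member also passed the 2-fold limit of the study, against 0.751% of all genes. The log2 fold change was above 0 for 26 of the 40 genes, with a median of 0.07, beside a median of -0.0028 over all genes tested. At an unadjusted p below 0.05 stood 9 of the 40, beside 15.2% of all genes. DESeq2 called 4 of the 40, beside 3.89% of the genes it tested, with Fam134b, Nbr1 and Tax1bp1 higher and Atg7 lower. The groups did not overlap for 8 genes, 20% of the 40, close to the 20.4% of all genes.

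The second comparison asked the same of a single corticosterone injection. Fam134b rose more than 3-fold, Atg14, the subunit that directs the phosphatidylinositol 3-kinase complex to autophagy, rose, and Tfeb fell. These are 3 of 40 genes, beside 8.13% of the 14656 genes tested. The 2 that rose compare with 3.64% of all genes, the 1 that fell with 4.5%, and the 1 that also passed the 2-fold limit with 1.87%. The log2 fold change was above 0 for 21 genes and below 0 for 19, with a median of 0.014, equal to the median of all genes to 2 digits (0.014). At an unadjusted p below 0.05 stood 9 of the 40, a share close to the 23.4% of all genes. DESeq2 called 5 of the 40, with Becn1 and Wipi1 added as higher, beside 13.5% of the genes it tested. The libraries of both groups did not overlap for 14 genes, 35% of the 40, against 28.7% of all genes. Of these 14, CORT was higher for 11 and lower for 3.

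**Figure D2:**
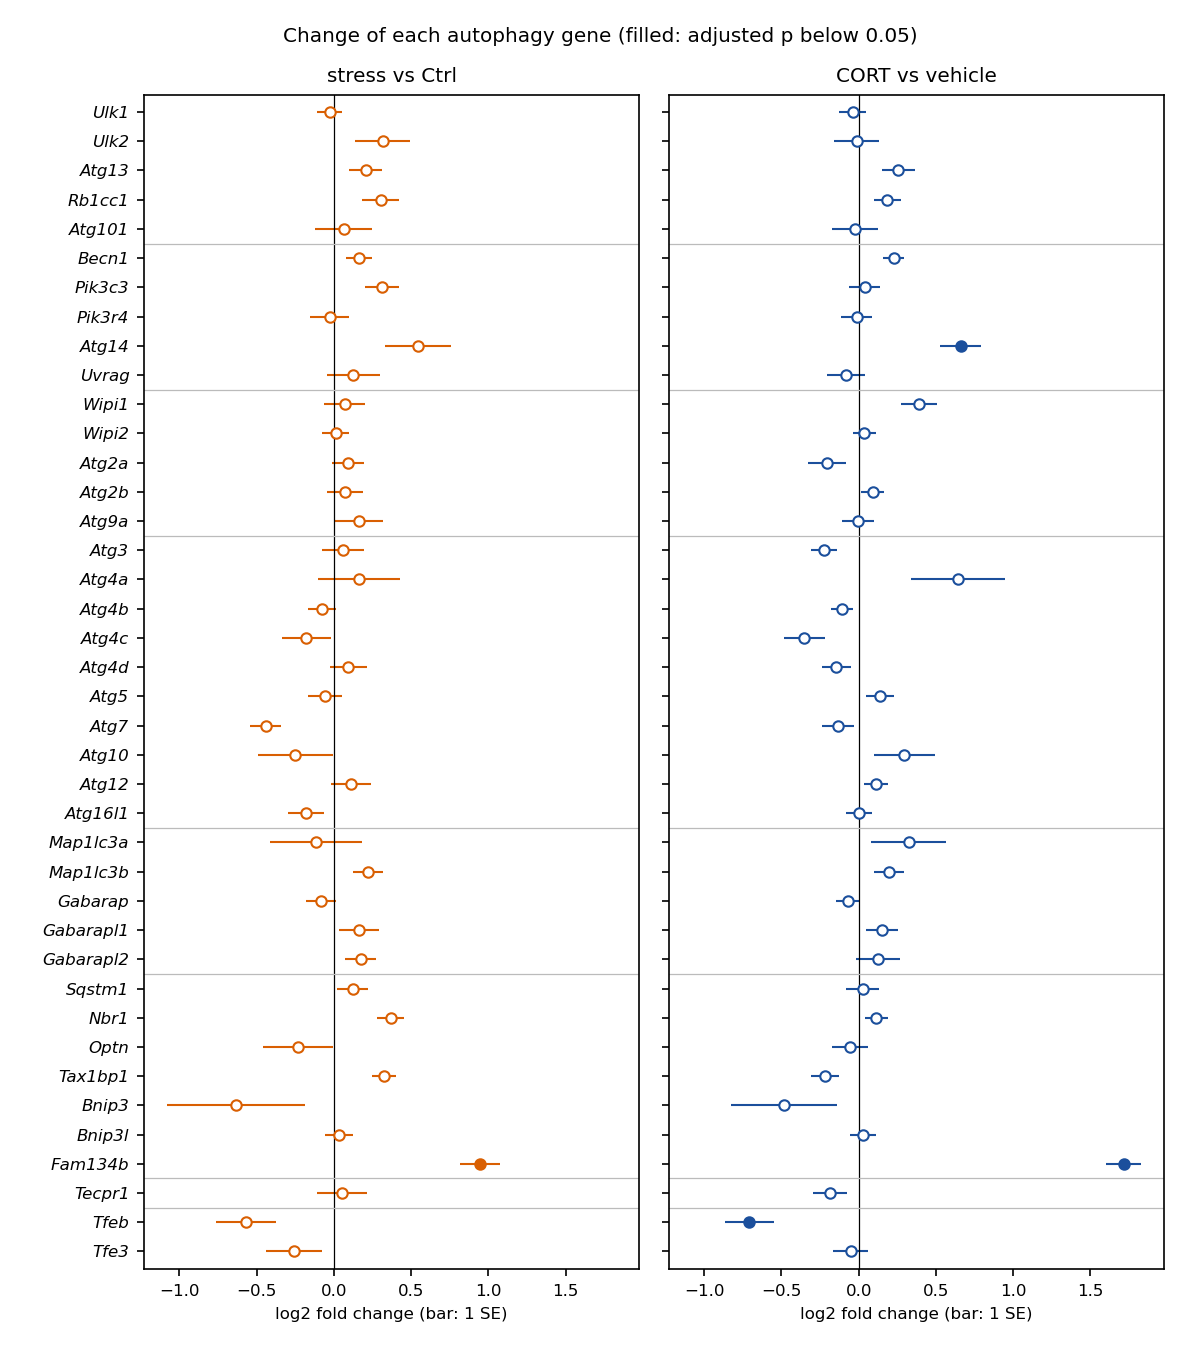
Log2 fold change of each autophagy gene in stress against Ctrl (left) and CORT against vehicle (right); bars are 1 SE from edgeR, n = 3 libraries per group, and filled points have an adjusted p below 0.05. Most genes lie near 0; Fam134b is filled in both panels, and Atg14 and Tfeb on the right.

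Fam134b (Retreg1; mm10 chromosome 15, 25843264 to 25973687, plus strand) encodes a membrane protein of the endoplasmic reticulum that binds ATG8 proteins and so delivers sheets of that organelle to autophagosomes. Its level was 36.4, 31.1 and 32.8 CPM in the 3 Ctrl libraries and 67.7, 53.2 and 72.0 CPM in stress libraries 1+2, 3 and 4+5+6. The vehicle libraries measured 23.6, 30.4 and 25.0 CPM, the CORT libraries 88.5, 96.2 and 78.5 CPM. Every stress library thus lay above every Ctrl library and every CORT library above every vehicle library, and the lowest CORT library lay above the highest stress library.

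The log2 fold change of Fam134b in stress was 0.95 ± 0.13 (SE, n = 3 per group; edgeR adjusted p = 0.00767). The adjusted p was 0.0506 without Ctrl library 2, 0.0573 without Ctrl library 3, 0.0573 without a filter on low counts and 0.152 with limma on unfiltered FPKM, at log2 fold changes of 0.88 or more. In CORT it was 1.72 ± 0.12 (SE, n = 3 per group; edgeR adjusted p = 1.0e-04), a 3.28-fold higher level, and it passed the threshold under all 15 alternatives (adjusted p from 8.5e-38 to 0.0154). With the counts of these 6 libraries thinned to the depth of the smallest, it was 1.68. The smaller effect in stress than in CORT, a difference of -0.77 ± 0.18 (SE, 12 libraries), did not pass the test (edgeR adjusted p = 0.0902); with DESeq2 the adjusted p of this difference was 0.0119.

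The summed enterocyte and goblet cell markers had the same order as Fam134b over the 3 stress libraries, and their part in the result was not tested. Within the stress group, library 3 had both the lowest sum of enterocyte markers, 320 CPM, and the lowest Fam134b, and library 4+5+6 had the highest of both, 1674 and 72.0 CPM. Goblet cell markers summed to 502, 932 and 1448 CPM in stress libraries 3, 1+2 and 4+5+6. In Ctrl, library 1 had the lowest enterocyte sum, 178 CPM, but the highest Fam134b, 36.4 CPM. Without library 4+5+6 the log2 fold change was 0.86 (edgeR adjusted p = 0.0291). In CORT, where the enterocyte sums of 127 to 194 CPM overlapped those of vehicle, Fam134b was at its highest. Of the single enterocyte markers, Fabp2 was higher and Fabp1 lower in every CORT library than in every vehicle library. The summed Paneth cell markers were lower in every CORT library than in every vehicle library, as were 5 of the 6 markers taken singly, whereas Ang4 overlapped; their part in the result was not tested.

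**Figure D3:**
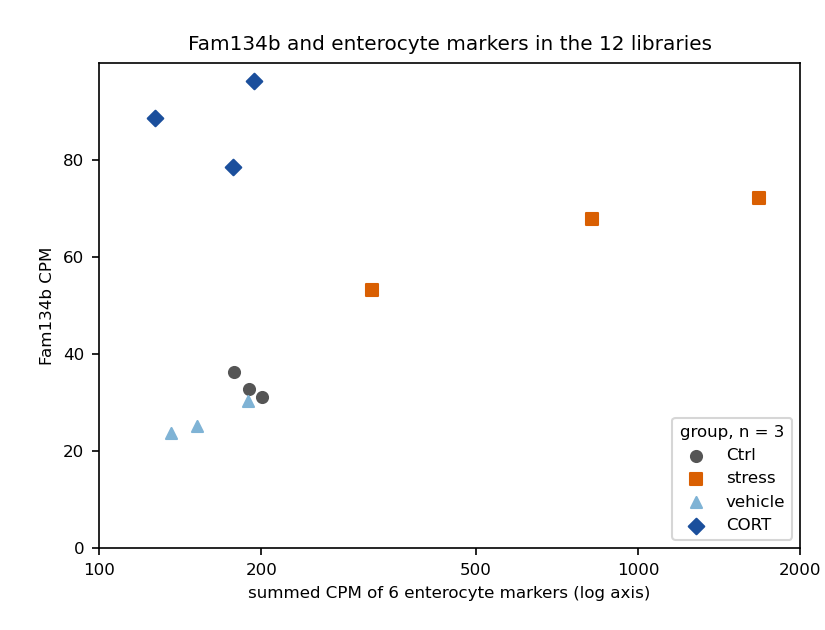
Fam134b in CPM against the summed CPM of 6 enterocyte markers (log axis) in the 12 libraries, with colour and marker for the group (n = 3). The stress libraries spread to the right, from 320 to 1674 CPM, while the CORT libraries lie highest at 127 to 194 CPM.

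Atg14 (chromosome 14, 47540894 to 47568434, minus strand) measured 15.7, 18.7 and 17.5 CPM in vehicle and 27.8, 31.1 and 24.5 CPM in CORT. All CORT libraries were higher, and the log2 fold change was 0.66 ± 0.13 (SE, n = 3 per group; edgeR adjusted p = 0.0173). The adjusted p was 0.052 without vehicle library 6, 0.0912 without CORT library 4 and 0.0971 with limma on unfiltered FPKM. In the other experiment it measured 26.1, 17.5 and 14.2 CPM in Ctrl and 24.3, 28.6 and 31.2 CPM in stress. Here Ctrl library 1 lay inside the range of the stress libraries, and the log2 fold change of 0.55 ± 0.21 did not pass the test (edgeR adjusted p = 0.256).

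Tfeb (chromosome 17, 47737030 to 47792419, plus strand) encodes a transcription factor that is held in the cytoplasm by mTORC1 and turns on autophagy and lysosome genes when it enters the nucleus. It measured 23.9, 19.9 and 27.4 CPM in vehicle and 14.0, 13.6 and 16.7 CPM in CORT, so that all CORT libraries were lower. Its level fell by 0.71 ± 0.16 on the log2 scale (SE, n = 3 per group; edgeR adjusted p = 0.0251). The adjusted p was 0.0551 without vehicle library 3, 0.0807 without vehicle library 6, 0.0731 without CORT library 2, 0.113 without CORT library 4 and 0.0608 with limma on unfiltered FPKM. Among Ctrl libraries it measured 16, 24.3 and 24.4 CPM and in stress 15.8, 12.8 and 14.9 CPM. The stress libraries were again all lower, Ctrl library 1 only by a small margin, and the log2 fold change of -0.57 ± 0.19 did not pass the test (edgeR adjusted p = 0.19). Tfe3, its close relative, showed -0.26 ± 0.18 (stress) and -0.05 ± 0.12 (CORT) on the same scale, and neither passed.

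**Figure D4:**
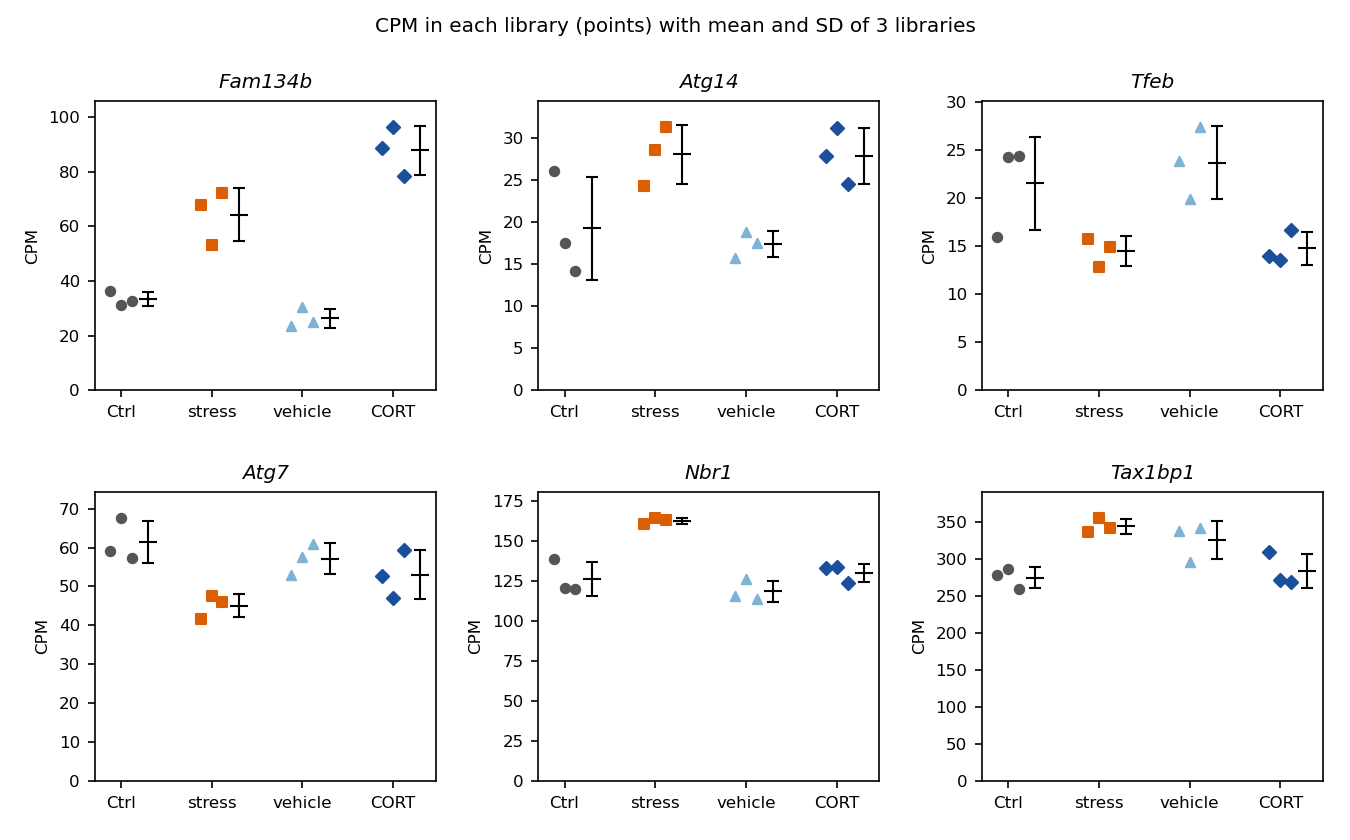
CPM of 6 autophagy genes in each library, with the mean and SD of 3 libraries as black bars. Fam134b and Atg14 are higher and Tfeb lower in CORT than in vehicle in every library; Atg7 is lower and Nbr1 and Tax1bp1 are higher in every stress library than in Ctrl, with adjusted p from 0.0659 to 0.0711.

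Of the ULK complex, Ulk1, its kinase, had the narrowest spread, at 73.6 to 79.2 CPM in Ctrl, 73.9 to 76.0 in stress, 62.8 to 72.1 in vehicle and 61.7 to 69.3 in CORT. Its log2 fold change was -0.03 ± 0.08 after restraint and -0.04 ± 0.09 after the injection. None of the 5 subunits passed in either comparison. Per length, Atg101 stood highest at 19.5 FPKM, with log2 fold changes of 0.06 ± 0.18 and -0.02 ± 0.15. The scaffold Rb1cc1 (FIP200) gave 0.30 ± 0.12 in stress (edgeR adjusted p = 0.254) and 0.19 ± 0.08 in CORT (0.224) on the same scale. Of Rb1cc1, Ulk2 and Atg13 every change in stress lay above 0, but the libraries of both groups overlapped for each.

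Beside Atg14, the class III complex held Becn1, which measured 139, 153 and 153 CPM in Ctrl and 174, 162 and 163 CPM in stress. After the injections it measured 163, 155 and 165 CPM in vehicle and 195, 192 and 187 CPM in CORT. Both treated groups lay above their controls in all libraries, yet Becn1 passed in neither, with log2 fold changes of 0.16 ± 0.08 (edgeR adjusted p = 0.407) and 0.23 ± 0.07 (0.0744); DESeq2 gave 0.0334 for CORT. The catalytic subunit Pik3c3 measured 51.5, 49.0 and 50.2 CPM in Ctrl and 56.5, 72.3 and 57.7 in stress, again without overlap, with a log2 fold change of 0.31 ± 0.11 (edgeR adjusted p = 0.218); in CORT it was 0.04 ± 0.10, with overlap. Uvrag, which joins a complex without Atg14, and Pik3r4 had log2 fold changes between -0.08 and 0.13 in both comparisons.

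The genes of membrane supply did not pass in either comparison. Wipi2, which recruits the conjugation machinery and was highest among them at 17.9 FPKM, had log2 fold changes of 0.01 ± 0.09 and 0.04 ± 0.07. Wipi1, a related reader of the lipid made by Pik3c3, measured 35.2, 26.4 and 32.2 CPM in vehicle and 42.4, 41.9 and 40.6 CPM in CORT. CORT was higher in every library by 0.39 ± 0.11 on the log2 scale (edgeR adjusted p = 0.0719), with an adjusted p of 0.0261 with DESeq2 and 0.0403 without vehicle library 3. In this gene the vehicle libraries were the low ones, since Ctrl measured 41.9, 46.8 and 40.3 CPM, and the log2 fold change of vehicle against Ctrl was -0.46 ± 0.13 (edgeR adjusted p = 0.166). Atg2a, which with Atg2b transfers lipid to the growing membrane, had log2 fold changes of 0.09 ± 0.10 (stress) and -0.21 ± 0.12 (CORT). Tecpr1, a tethering factor that joins autophagosomes to lysosomes, ranged from 32.3 to 49.5 CPM over the 12 libraries, and its log2 fold changes of 0.05 ± 0.16 and -0.18 ± 0.11 did not pass.

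Of the 10 genes of the conjugation system and the ATG4 proteases, none passed. Atg7, the enzyme that activates both ATG8 proteins and Atg12, came nearest in stress. It measured 59.2, 67.6 and 57.4 CPM in Ctrl and 41.7, 47.4 and 46.1 CPM in stress, with no overlap, a log2 fold change of -0.44 ± 0.10 and an edgeR adjusted p of 0.0659. The adjusted p was 0.0297 with DESeq2, 0.035 in a fit over all 12 libraries and 0.038 without stress library 3. In CORT Atg7 measured 52.6, 47.0 and 59.4 CPM against 52.9, 57.6 and 61.0 in vehicle, which overlapped. Atg4d, the highest of this group per length at 17.7 FPKM, had log2 fold changes of 0.09 ± 0.12 (stress) and -0.15 ± 0.09 (CORT). Atg12, next at 17.3 FPKM, gave 0.11 ± 0.13 and 0.11 ± 0.08, and none of these passed. Atg5 and Atg16l1, which with Atg12 form the complex that places ATG8 proteins on the membrane, had log2 fold changes between -0.18 and 0.14. Atg10, which joins Atg12 to Atg5, gave -0.25 ± 0.24 (stress) and 0.30 ± 0.20 (CORT), and the protease Atg4c gave -0.18 ± 0.16 and -0.35 ± 0.13. In CORT 6 of the 10 did not overlap with vehicle, 4 higher and 2 lower, where 28.7% of all genes did not. The largest difference was that of Atg4a, at a log2 fold change of 0.64 ± 0.30 (edgeR adjusted p = 0.244). Atg4a shares 2115 bases at 99.3% identity with a processed copy, Atg4a-ps, whose counts came to 5.47% of its own, so that its value is uncertain.

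The 5 ATG8 proteins, the tags to which receptors bind, did not pass in either comparison. Map1lc3b (LC3B) measured 109, 116 and 97.8 CPM in Ctrl and 124, 137 and 116 in stress. The vehicle libraries measured 90.7, 103 and 113 CPM, those of CORT 129, 111 and 117 CPM. Groups overlapped in both pairs, with log2 fold changes of 0.22 ± 0.10 (edgeR adjusted p = 0.325) and 0.19 ± 0.10 (0.264). Gabarap ranged from 125 to 158 CPM over all 12 libraries and had log2 fold changes of -0.08 ± 0.10 and -0.07 ± 0.08. Gabarapl2 measured 36.5, 36.1 and 39.1 CPM in Ctrl and 41.2, 43.8 and 40.6 in stress, without overlap, at 0.17 ± 0.10 (edgeR adjusted p = 0.477). Its relative Gabarapl1 had log2 fold changes of 0.16 ± 0.13 and 0.15 ± 0.10. Map1lc3a was the lowest of the 5 at 4.73 to 12.1 CPM and had the widest errors, at -0.12 ± 0.30 and 0.32 ± 0.24. Map1lc3b and Gabarapl2 have near-identical copies elsewhere in the genome, of which Gm6055 held 0.241% as many counts as Map1lc3b and Gm3724 held 0.497% as many as Gabarapl2.

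The cargo receptors held the largest change of each comparison, that of Fam134b. Nbr1, a receptor for ubiquitinated cargo, measured 139, 120 and 120 CPM in Ctrl and 160, 164 and 163 CPM in stress. All stress libraries were higher, at a log2 fold change of 0.37 ± 0.09 (edgeR adjusted p = 0.0695). Tax1bp1 measured 279, 287 and 260 CPM in Ctrl and 336, 356 and 342 CPM in stress, likewise without overlap, at 0.33 ± 0.08 (edgeR adjusted p = 0.0711). For Nbr1 and Tax1bp1 in turn, the adjusted p was 0.0102 and 0.00449 with DESeq2, 0.0452 and 0.0493 when genes with under 10 counts in a library were left out, 0.0191 and 0.0408 in a fit over 12 libraries, and 0.0464 and 0.0443 without stress library 3. Sqstm1, the best known of these receptors, differed by 0.12 ± 0.10 (stress) and 0.03 ± 0.11 (CORT) on the log2 scale, and Bnip3l (NIX), a mitophagy receptor, by 0.03 ± 0.09 and 0.03 ± 0.08, none of which passed. Optn and the low Bnip3 had negative log2 fold changes in both, and neither passed.

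Tax1bp1 took opposite signs in the 2 experiments. In CORT it measured 310, 272 and 270 CPM against 338, 296 and 343 CPM in vehicle, which overlapped, at a log2 fold change of -0.22 ± 0.09 (edgeR adjusted p = 0.176). The difference between the effects was 0.54 ± 0.11 on 12 libraries and did not pass (edgeR adjusted p = 0.0616); the adjusted p was 0.000641 with DESeq2, 0.0403 with at least 10 counts in every library and 0.0493 without stress library 3. None of the 40 genes had a difference between the effects past the threshold, where 0.388% of 14415 genes did, and 3 stood at an unadjusted p below 0.05 (Tax1bp1, Fam134b and Nbr1), beside 12.5% of all genes. DESeq2 called 2, Tax1bp1 and Fam134b, beside 2.55% of the genes it tested.

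Both treated groups were read against their own controls, so the controls were also set against each other. In vehicle against Ctrl none of the 40 genes passed (edgeR), beside 0.799% of 13642 genes, and 4 stood at an unadjusted p below 0.05, beside 11.1% of all genes. Fam134b was lower in every vehicle library than in every Ctrl library, at -0.35 ± 0.14 (edgeR adjusted p = 0.358). Tax1bp1 was higher in every vehicle library, at 0.24 ± 0.08 (edgeR adjusted p = 0.284). The log2 fold change was above 0 for 13 of the 40 genes and below 0 for 27. Its median was -0.07, beside 0.0019 over all genes tested. Libraries of the 2 control groups did not overlap for 11 genes, 27.5% of the 40, beside 16.2% of all genes. Vehicle was higher for 3 of these 11 and lower for 8. The part of these gaps in the CORT comparison was not tested. DESeq2 called none of the 40 here either, beside 2.27% of the genes it tested.

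The promoters of the members were searched for letters that transcription factors of this pathway are known to bind. RefSeq (GRCm38.p6) gave 43 windows, of 250 bases before to 50 after a start site, for 33 of the 40 genes. The CLEAR element bound by Tfeb and Tfe3, written GTCACGTG, was searched on both strands, and every match to it also holds the E-box CACGTG. It occurred in windows of 4 genes, 9.3% of the 43 windows, beside 2.25% of all 32851 windows. The E-box, counted whether or not it lay within a CLEAR element, occurred in 14.0% of the 43 and 7.15% of all windows. The 4 genes include Atg14 and Fam134b, which rose in CORT. Their matches, and those of Atg3 and Atg7, are shown with the 8 letters in capitals, on the strand of the gene (Atg3 has 2).
Atg14, chr14:47568417-47568446, minus strand: aaacaaaatccCACGTGACtggccctgagc
Fam134b, chr15:25942478-25942507, plus strand: taagggctgctGTCACGTGcagcagcatta
Atg3, chr16:45158722-45158751, plus strand: ggcctccttttGTCACGTGtcctgggagag
Atg3, chr16:45158745-45158774, plus strand: gggagagtcgaGTCACGTGaggccttaggt
Atg7, chr6:114670951-114670980, plus strand: ccatattggtgGTCACGTGtgcagtaagtg

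The match of Atg14 lies on the reverse strand and begins 1 base before the start site, that of Fam134b 190 bases before the fourth of its 4 start sites, those of Atg3 96 and 73 bases and that of Atg7 134 bases before theirs. The start site used for Atg7 lies well inside its annotated gene, which begins at base 114643097 on the plus strand. So does the fourth start site of Fam134b, whose gene begins at base 25843264 on the plus strand. Whether these start sites were in use in these cells was not tested. The 4 genes did not move alike: in CORT the log2 fold changes of Fam134b and Atg14 were 1.72 and 0.66, and those of Atg3 and Atg7 were -0.22 and -0.13, neither of which passed. The other 3 windows of Fam134b and the 3 of Tfeb held none of the letters searched. The FoxO site GTAAATA occurred in windows of 2 genes, Fam134b and Atg4a (4.65%, beside 3.04% of all windows), and GTAAACA in none (3.65% of all). The glucocorticoid receptor element, GNACA and TGTNC with 3 bases between them, occurred in no member's window and in 0.475% of all. These windows are short, and a match or its absence says nothing about binding.

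The genes around this core were described from 6 lists of 93 genes: further autophagosome genes, fusion with the lysosome, mitophagy, ER-phagy, upstream kinases with mTORC1, and lysosome genes. In stress 1 of the 92 tested rose and none fell, and in CORT 6 of 93 rose and 3 fell. These shares, 1.09% and 9.68%, lay near the 1.89% and 8.13% of all genes. The medians of the log2 fold change were 0.04 and -0.0065. The gene that rose in stress was Trp53inp1, a p53-induced protein that binds ATG8 proteins. It measured 30.01, 24.4 and 17.2 CPM in Ctrl and 91.3, 88.02 and 81.5 CPM in stress. The vehicle libraries measured 15.1, 15.3 and 12.0 CPM and the CORT libraries 228, 223 and 155 CPM. Both treated groups were far above their controls, with log2 fold changes of 1.87 ± 0.17 (edgeR adjusted p = 6.2e-04) and 3.83 ± 0.17 (1.2e-05).

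Of the further genes that rose in CORT, Bcl2 and Bcl2l1 encode proteins that bind Becn1 and restrain autophagy as well as cell death. Bcl2 measured 24.5, 29.2 and 31.0 CPM in vehicle and 51.7, 88.9 and 77.8 in CORT, at 1.34 ± 0.19 (edgeR adjusted p = 0.00299, and 0.0618 with limma on unfiltered FPKM). Bcl2l1 measured 35.1, 47.6 and 40.8 CPM in vehicle and 90.4, 82.0 and 76.3 in CORT, at 0.99 ± 0.12 (edgeR adjusted p = 0.00131). In both genes every CORT library was higher. In stress their log2 fold changes were 0.58 ± 0.17 and 0.44 ± 0.11, and neither passed (edgeR adjusted p = 0.134 and 0.0779).

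On the mTORC1 side, Fnip2, a partner of folliculin, rose in CORT and Rragd, a Rag GTPase on which folliculin acts, fell. Fnip2 measured 22.4, 17.7 and 16.6 CPM in vehicle and 47.4, 53.8 and 44.3 in CORT, at 1.34 ± 0.14 (edgeR adjusted p = 0.000719). Rragd measured 69.2, 74.3 and 56.0 CPM in vehicle and 39.6, 41.2 and 37.2 in CORT, a fall by 0.78 ± 0.11 on the log2 scale (edgeR adjusted p = 0.0038). Both passed under all 15 alternatives. Prkab1, a subunit of the kinase AMPK, fell by 0.28 ± 0.07 (edgeR adjusted p = 0.037), and lost the call without any of the 6 libraries in turn (0.0543 to 0.143), without a filter (0.0883) and at thinned depth (0.0973).

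Of the 15 fusion genes, Stx17, the syntaxin of the autophagosome, rose by 0.39 ± 0.09 in CORT (edgeR adjusted p = 0.0292); it lost the call without vehicle libraries 3, 5 or 6 or CORT libraries 2 or 4 (0.0595 to 0.125), with limma on FPKM (0.149 to 0.191) and at thinned depth (0.0539). Of the 24 lysosome genes 22 did not pass in CORT, and the share called, 8.33%, lay near the 8.13% of all genes. The sialidase Neu1 fell by 0.60 ± 0.13 (edgeR adjusted p = 0.0215), which was lost without vehicle libraries 5 or 6 or CORT libraries 2 or 5 (0.0508 to 0.0825) and in a fit over 12 libraries (0.0672). The median of the lysosome list was -0.07. None of the 8 further ER-phagy genes and none of the 10 mitophagy genes passed in either comparison, 9 of the mitophagy genes being tested in stress.

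**Figure D5:**
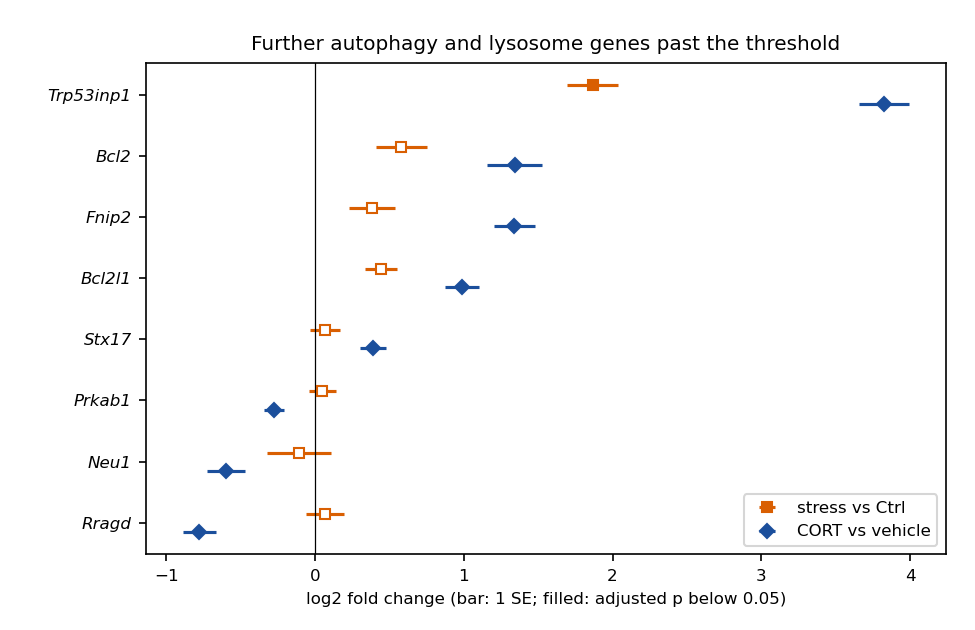
Log2 fold change (bars: 1 SE; n = 3 libraries per group) of 8 of the 9 further genes past an adjusted p of 0.05 in either comparison; filled symbols passed. Trp53inp1 is filled in both comparisons, at 1.87 in stress and 3.83 in CORT, and the other 7 only in CORT.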

How the data were processed

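RNA-seq libraries of sorted ISCs were analysed from the tables deposited by the authors: estimated counts per gene for 12 libraries, not divided by library size, and per-library FPKM and mean coverage (a signal not divided by depth). Per the submitters' processing notes, HISAT2 2.2.1, StringTie 2.2.1 and mm10 were used; the methods name featureCounts for counting. In genes with 1 transcript a count stood for a median of 75.0 covered bases, so counts are not read pairs. No molecular identifiers and no use of strand are stated. No column was left without a sample (0 columns). Groups came from the labels.

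Counts were rounded and tested with edgeR 4.0.16 in R 4.3.3 (quasi-likelihood F-test, TMM, filterByExpr, Benjamini-Hochberg over all genes tested), on the 6 libraries of a comparison, or on 12 for the difference between effects. A call was an adjusted p below 0.05, and separately with a 2-fold change. The SE was the absolute log2 fold change divided by the square root of F. CPM used TMM factors over 12 libraries. Alternatives used DESeq2 1.42.0, limma 3.58.1 on log2(FPKM + 1) or log2(FPKM + 0.1), other filters and each library left out; thinning to equal depth was chosen after seeing the data. Scripts were tested on simulated data. For the 136 repeated symbols the row with the largest mean count stood for the gene.

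The 40 genes and all lists were chosen with earlier results of these data known. All 40 are named, with full statistics for those past the threshold, values for the 2 highest of each role and for all ATG8 genes, and up to 5 genes past the threshold of each further list. Of the further lists, 1 gene past the threshold is counted but not reported here by name.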

Additional observations from a re-analysis of the deposited data

Results flagged for a closer look

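Among the core and further autophagy genes, the effects in the 2 experiments differed past the threshold for Trp53inp1 alone (edgeR). The effect in stress minus that in CORT was -1.96 ± 0.26 on the log2 scale (SE, 12 libraries; edgeR adjusted p = 0.0066), and every treated library of both experiments was above its controls. The adjusted p was 0.0763 with limma on unfiltered FPKM, and at most 0.0318 under every other alternative run. The controls of Trp53inp1 differed as well, with every vehicle library below every Ctrl library, a gap that did not pass the test. This gap enters the difference between the effects, and its part in it was not tested.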

How the results depend on the processing

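Of 160 values of the 40 genes (4 comparisons each), 4 were past the threshold, and none of the 2480 recomputed values turned the direction of those 4; 30 changed sides of the threshold, and 158 turned the direction of a value that was not past it. In stress, the number of members that rose (1) was 3 with DESeq2, 3 with at least 10 counts in every library, 3 in a fit over 12 libraries, 0 without a filter on low counts and 0 with limma on unfiltered FPKM; it ranged from 0 to 3 with 1 library left out (0 without Ctrl 2 or Ctrl 3, 3 without stress 3). The number that fell (0) was 1 with DESeq2 and 1 in a fit over 12 libraries, and ranged from 0 to 1 with 1 library left out (1 without stress 3). In CORT, the number that rose (2) was 4 with DESeq2 and 1 with limma on unfiltered FPKM, and ranged from 1 to 3 (1 without vehicle 6 or CORT 4); the number that fell (1) was 0 with limma on unfiltered FPKM and ranged from 0 to 1 (0 without vehicle 3, vehicle 6, CORT 2 or CORT 4). For the difference between effects (0 and 0), DESeq2 gave 1 higher and 1 lower, at least 10 counts gave 1 higher, and leaving out 1 library gave 0 to 1 higher (1 without stress 3). Of the further genes, those that rose in stress (1) were 4 with DESeq2, 2 with at least 10 counts and 1 to 4 with 1 library left out (4 without stress 3). Those that rose in CORT (6) were 3 with limma on unfiltered FPKM and 4 to 5 with 1 library left out. Those that fell in CORT (3) ranged from 1 to 2 with 1 library left out (1 without vehicle 5, vehicle 6, CORT 2 or CORT 5). The cause of these changes was not tested. Thinned to equal depth, CORT still had 2 members higher and 1 lower. With 3 libraries per group, the smaller changes lie near the limit of the test, and a value not past it does not show that a gene stayed level. A count of 0 would allow 12 counts, or 0.182 to 0.740 CPM, and no member was that low. No paired analysis was possible because the groups compared share fewer than 2 replicate numbers.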
